A study of Mus musculus with 24 samples.

Results

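The genes that encode the protein subunits of oxidative phosphorylation in the cell nucleus were followed through the mouse digestive tract, in animals with and without gut microbes. Members were all probe sets of the array whose platform gene symbol begins with Ndufa, Ndufb, Ndufc, Ndufs, Ndufv, Uqcr, Cox4 to Cox8 or Atp5, or is Sdha, Sdhb, Sdhc or Sdhd. The rule found 98 probe sets with 1 gene symbol, for 71 of the 8252 genes so named, among the 12488 probe sets of the array, and 10 more that list a member gene together with other genes and are named only where stated. Of the 98, 38 report complex I, 4 complex II, 7 complex III, 22 complex IV, 22 complex V, 4 assembly factors of complex I (Ndufaf1 and Ndufaf4) and 1 the supercomplex factor Cox7a2l. A filter on low signal kept 78 of them, for 66 genes: 30 for complex I, 4 for complex II, 7 for complex III, 14 for complex IV, 20 for complex V, 2 for assembly factors and Cox7a2l. The other 20 exceeded the filter signal of 51.5 on at most 2 of the 24 arrays. They include every probe set for Cox5a, Cox8a, Ndufa12, Ndufc2 and Atp5j2, so no difference is given here for those genes. Cox4i2, Ndufa4 and Atp5if1 have no member probe set with 1 symbol.

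Conventional mice, which carry a microbiota, were compared with germ-free mice, which carry none. From each state there were 3 arrays of whole-thickness tissue of the corpus (the stomach apart from its antrum), the jejunum and, as adjoining pieces at the end of the gut, the descending colon and the rectum, which gives 8 groups and 24 arrays. Strain, age and sex are not given in the sources used here, and the labels do not say which arrays share a mouse, so each p-value is set against the scatter of these arrays only, which may be technical in part. Each array held the RNA of all layers of the wall, and in such bulk tissue fewer cells of a type and less RNA per cell cannot be told apart.

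Oxidative phosphorylation takes place in the inner membrane of mitochondria. Complex I oxidises NADH, complex II oxidises succinate and is also a citric acid cycle enzyme, complex III passes the electrons to cytochrome c, complex IV passes them to oxygen, and complex V uses the proton gradient they build to make ATP. Most subunits are encoded in the nucleus and a few in the mitochondrial genome, and in the gut the acid-secreting parietal cells of the corpus are known for their density of mitochondria. Promoters of many of these genes carry sites for nuclear respiratory factor 1 (NRF1), for ETS-family factors such as GABP, and for YY1.

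Promoter windows of 300 bases (250 before to 50 after the gene's start) were at hand from RefSeq, build GRCm38.p6, for 58 of the 71 member genes. The 120 bases before the start are printed below, 5′ to 3′ along the gene, for Ndufb3 and Uqcrh, which were called between states, and for the 3 subunits of complex II with a window, of which Sdha and Sdhd were called between regions. Capitals mark a match to the ETS core CCGGAAG or the NRF1 core GCGCATGC on either strand. The windows lie at chr1:58586277-58586396 on the plus strand for Ndufb3, chr4:116075071-116075190 on the minus strand for Uqcrh, chr13:74350241-74350360 on the minus strand for Sdha, chr4:140961151-140961270 on the plus strand for Sdhb and chr9:50603850-50603969 on the minus strand for Sdhd.
Ndufb3: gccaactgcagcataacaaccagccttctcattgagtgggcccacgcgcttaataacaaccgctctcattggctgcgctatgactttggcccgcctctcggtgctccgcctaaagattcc
Uqcrh: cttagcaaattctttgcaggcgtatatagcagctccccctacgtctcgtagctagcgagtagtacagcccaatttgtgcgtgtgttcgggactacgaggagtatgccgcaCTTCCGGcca
Sdha: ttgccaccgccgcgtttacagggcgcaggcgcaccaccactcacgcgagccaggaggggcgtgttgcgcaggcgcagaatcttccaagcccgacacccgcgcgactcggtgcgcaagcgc
Sdhb: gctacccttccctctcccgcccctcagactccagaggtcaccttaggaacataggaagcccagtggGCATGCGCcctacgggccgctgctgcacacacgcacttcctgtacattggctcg
Sdhd: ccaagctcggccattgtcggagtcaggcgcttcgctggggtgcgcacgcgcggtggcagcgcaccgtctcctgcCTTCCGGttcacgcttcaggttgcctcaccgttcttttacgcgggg
Uqcrh and Sdhd hold an ETS core in the stretch shown and Sdhb an NRF1 core, with an ETS core in the rest of its window. The windows of Ndufb3 and Sdha hold none of the cores searched. Over all 58 genes, the NRF1 core was in the windows of 10 (17.2%), against 3.05% of the 27025 genes with a window. The ETS core was in 16 (27.6%, against 9.93%), and the YY1 core AAGATGGC in 8 (13.8%, against 3.19%). Among protein-coding genes alone, the NRF1, ETS and YY1 cores were in 3.94%, 12.9% and 3.57%. Both strands were searched, and the last 3 letters of the ETS core are the first 3 of the YY1 core, so that the matches can overlap. At least 1 of the 3 cores was in 28 windows (48.3%), against 14.9% of all genes and 18.7% of the 17492 protein-coding ones. A match describes letters and not a bound factor.

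Several arrays carried marker genes of another region than their label. Enterocyte markers (8 genes, 10 probe sets) summed to 822 on conventional jejunum array 3 but to 24830 on conventional rectum array 1, against 28590 to 50540 on the other 5 jejunum arrays. On germ-free corpus array 3, the summed signal of the parietal cell markers (6 genes, 9 probe sets) was 7877, against 18390 to 37750 on the other corpus arrays. The latter also held squamous epithelium markers, summing to 30910 to 42010, against 592 on germ-free corpus array 3. That array correlated at r = 0.987 with germ-free descending colon array 3, the closest of all array pairs. These 3 arrays, or 6 with germ-free jejunum 3, descending colon 1 and rectum 1, which hold part of another region's markers, were left out in repeats given beside the results. The arrays were scaled to a common trimmed mean of 200.1, and their median signals ran from 74.2 to 85.9 in conventional and from 68.6 to 103.5 in germ-free mice.

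The subunits read slightly higher in germ-free than in conventional mice, in all 5 complexes and in most subunits, and 3 of them passed the test: Ndufb3 and Ndufb9 of complex I and Uqcrh of complex III. Differences below are log2 of signal, germ-free minus conventional, averaged over the 4 regions with equal weight, and a member is called at an adjusted p below 0.05 (limma, Benjamini-Hochberg over all 9033 probe sets tested). Ndufb3 rose by 0.58 ± 0.095 (SE, 12 arrays against 12), which is 1.5-fold, Uqcrh by 0.39 ± 0.069 (1.31-fold) and Ndufb9 by 0.33 ± 0.069 (1.25-fold). Those 3 are 3.85% of the 78 members, against 1.68% of all probe sets called and 0.819% called higher. No member was called lower, against 0.864% of all. An unadjusted p below 0.05 (limma) was found for 29 members. The share of all probe sets is not given here for that count, so it describes the list only.

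Of the 78 members, 70 had an estimate above 0, against 55.9% of all probe sets. Their median was 0.19, against 0.034 for all probe sets tested. Counting by complex, the estimate was above 0 for 25 of 30 probe sets of complex I, 4 of 4 of complex II, 6 of 7 of complex III, 13 of 14 of complex IV and 20 of 20 of complex V. The medians of complexes I, II, III and V lay between 0.17 and 0.18, and that of complex IV, the cytochrome c oxidase, was 0.28. The 8 members below 0, none of them called, were Ndufv1 (-0.12), which binds NADH, Ndufb6 (-0.093), 1 of the Ndufb2 probe sets (-0.088), Ndufa7 (-0.077), the complex III core subunit Uqcrc1 (-0.076), Ndufb7 (-0.031), the assembly factor Ndufaf1 (-0.024) and 1 of the Cox6b2 probe sets (-0.016). In 35 members (44.9%) the estimate was above 0 in each of the 4 regions, against 15.6% of all probe sets, and in 0 members was it below 0 in all 4, against 9.5%. These counts are for the deposited scaling. Where the array medians were made equal, 56, 66, 38 and 49 of 77 members were above 0 in the corpus, jejunum, descending colon and rectum. Members share arrays, so these counts describe the list and carry no p.

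**Figure D1:**
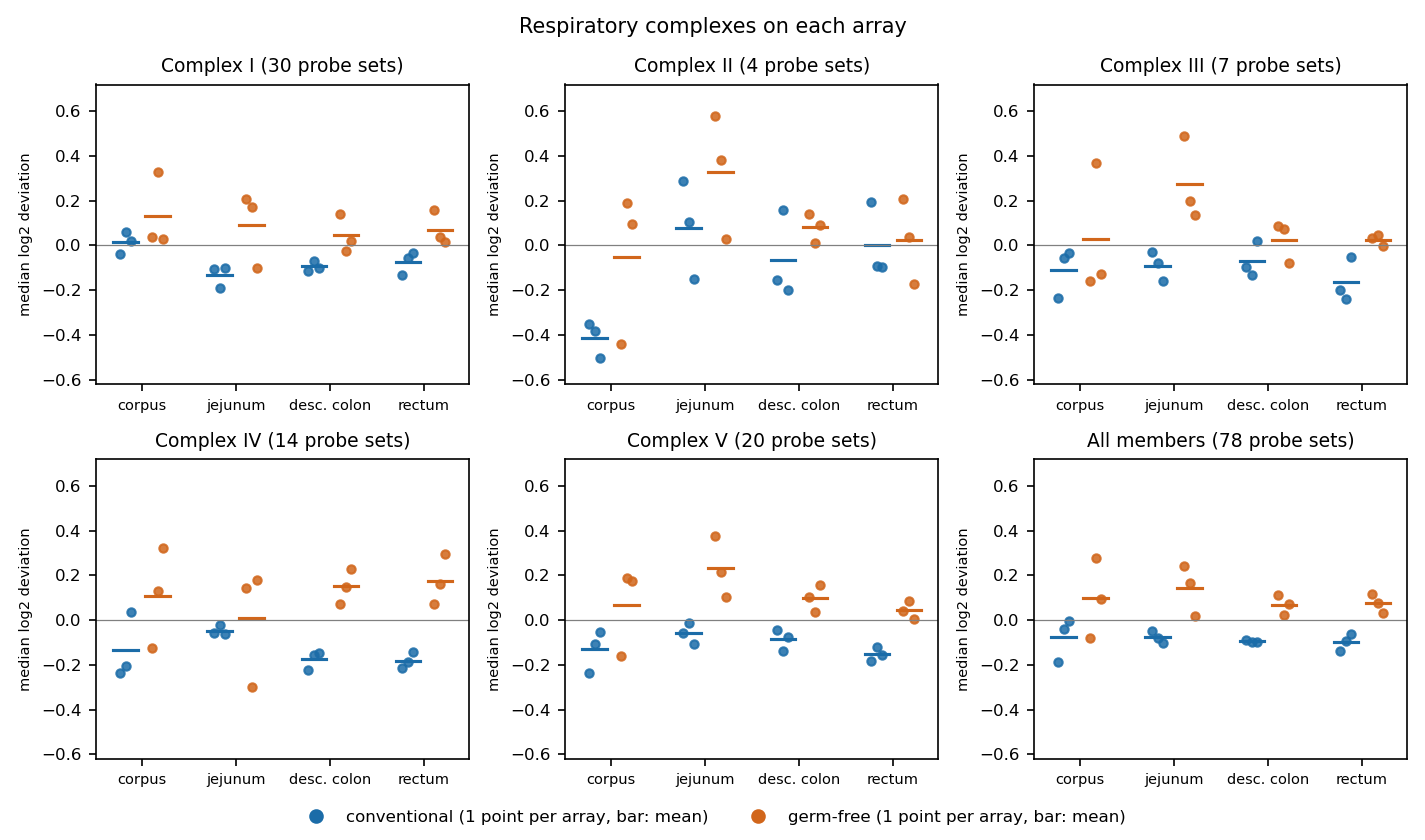
Each point is 1 array: the median, over the tested probe sets of a complex, of the log2 signal minus that probe set's mean over the 24 arrays; bars are means of 3 arrays, blue conventional and orange germ-free. Conventional arrays lie mostly below 0 and germ-free arrays mostly above it, and complex II is lowest in the conventional corpus (mean -0.41).

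The plot of complexes by array shows the size of this shift beside the spread between arrays. Over all 78 members, the array medians of the 12 conventional arrays ran from -0.19 to -0.0028 (mean -0.087, SD 0.048) and those of the 12 germ-free arrays from -0.079 to 0.28 (mean 0.097, SD 0.099). A single germ-free array, corpus 1, lay below the highest conventional ones, at -0.079, and the other 11 lay above all conventional arrays. Germ-free values scattered more widely than conventional ones, most of all in the corpus, where the 3 arrays read -0.079, 0.28 and 0.096. The conventional descending colon arrays were the tightest group, with an SD of 0.0040.

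**Figure D2:**
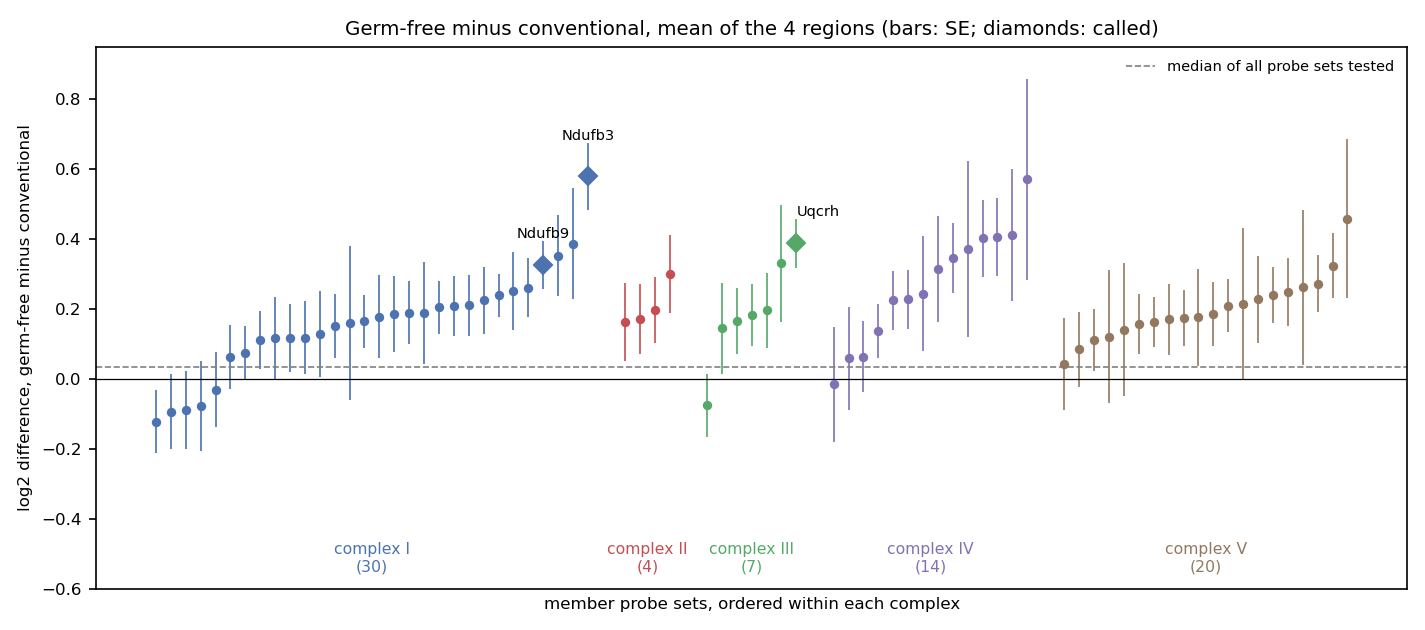
Log2 difference between germ-free and conventional mice, averaged over the 4 regions, for each tested probe set of the 5 complexes; bars are standard errors, diamonds mark the members called, and the dashed line is the median of all probe sets tested. Most members lie above the dashed line, with Ndufb3, Uqcrh and Ndufb9 called at 0.58, 0.39 and 0.33.

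Ndufb3, an accessory subunit in the membrane arm of complex I, differed most. In the corpus, the conventional arrays read signals of 601, 633 and 561 and the germ-free arrays 826, 812 and 650. In the jejunum they read 580, 629 and 494 against 811, 820 and 894. The germ-free arrays were above the conventional ones in both regions without overlap. In the descending colon the values were 397, 493 and 584 against 1294, 1002 and 703, and in the rectum 540, 534 and 558 against 823, 620 and 734. The groups did not overlap there either, and germ-free colon array 1 stood highest of the 24. The estimates were 0.34 in the corpus, 0.57 in the jejunum, 1.00 in the descending colon and 0.41 in the rectum (SE 0.19 each). Taken by region they were not called (adjusted p 0.611, 0.174, 0.113 and 0.982), and the test for a difference between regions gave an adjusted p of 0.922 (limma). The averaged difference had an adjusted p of 0.00351.

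Ndufb9, another accessory subunit of the membrane arm, differed less but without any overlap between states. In the corpus, the conventional arrays read 1261, 1256 and 1192 and the germ-free arrays 1358, 1993 and 1459. In the jejunum they read 1116, 1199 and 1138 against 1370, 1449 and 1267. Germ-free corpus array 2 was far above the rest, and the others lay close together. In the descending colon the signals were 1052, 1123 and 1260 against 1473, 1550 and 1436, and in the rectum 1208, 1243 and 1057 against 1560, 1451 and 1387. All 12 germ-free arrays, of whatever region, were above all 12 conventional arrays, with 1267 as the lowest germ-free and 1261 as the highest conventional signal. This held for 1 of the 9033 probe sets tested (0.0111%), and the opposite for 0. The regional estimates lay between 0.24 and 0.38 (SE 0.14 each), and the averaged difference had an adjusted p of 0.0212 (limma).

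Uqcrh is the hinge protein of complex III, which lies beside cytochrome c1. In the corpus, its conventional arrays read 1637, 1851 and 1934 and its germ-free arrays 2012, 2704 and 2453. In the jejunum they read 2206, 2150 and 2009 against 3151, 2819 and 2932. The jejunum was the region of highest signal in both states. In the descending colon the values were 2040, 1845 and 2099 against 2475, 2363 and 2456, and in the rectum 1828, 1880 and 2168 against 2284, 2467 and 2939. Within each region the germ-free arrays were all above the conventional ones, and 11 of 12 germ-free arrays exceeded the highest conventional signal of any region. The regional estimates were 0.40, 0.48, 0.29 and 0.38 in that order (SE 0.14 each), and the averaged difference had an adjusted p of 0.00716 (limma). Its promoter, with the ETS core, is printed above.

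**Figure D3:**
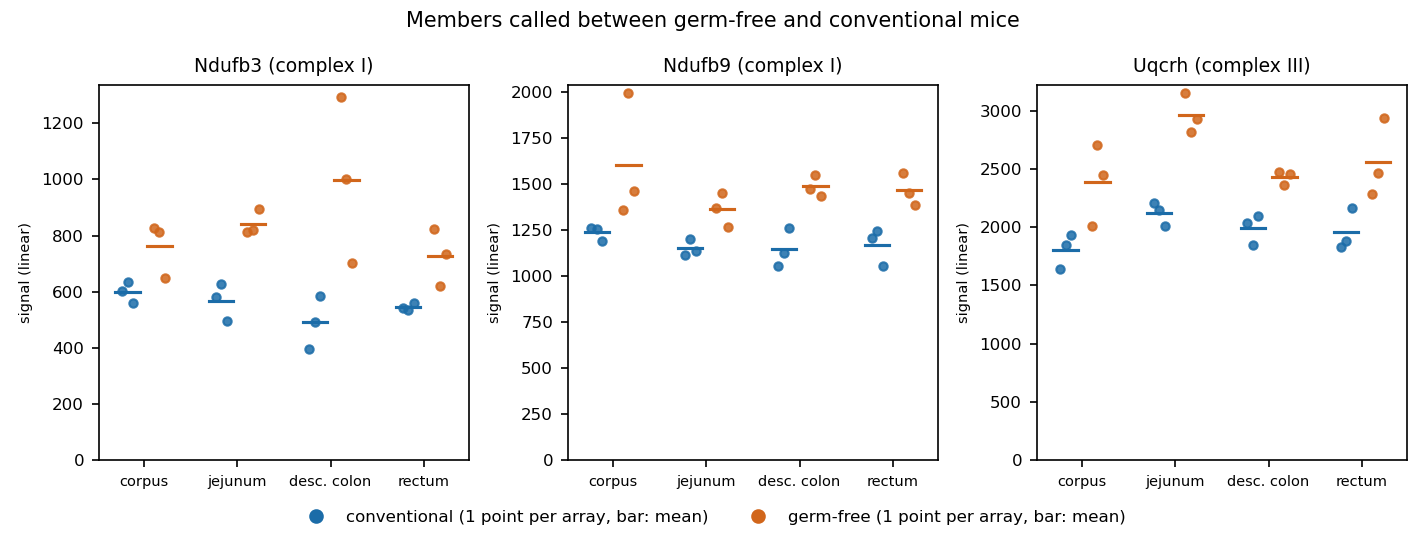
Linear signal of the 3 members called between states, by region; points are arrays (blue conventional, orange germ-free) and bars are means of 3. Germ-free arrays lie above conventional arrays in every region for all 3 genes, and for Ndufb9 the lowest germ-free array (1267) is above the highest conventional array (1261).

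All 3 calls held in each of the 24 repeats that left out 1 array, with adjusted p up to 0.00961 for Ndufb3, 0.0187 for Uqcrh and 0.047 for Ndufb9 (limma). Without the 3 arrays whose markers oppose their label, the same 3 were called (adjusted p 0.0101, 0.0263 and 0.0336). Without 6 arrays, Ndufb9 was at 0.0602 and was no longer called. Where the array medians were made equal, only Ndufb3 was called (0.51, adjusted p 0.0439), with Uqcrh at 0.32 (0.0599) and Ndufb9 at 0.25 (0.179). With state and replicate number as a random replicate block, Ndufb9 was at an adjusted p of 0.0939 and was no longer called, with Ndufb3 at 0.0276 and Uqcrh at 0.0453.

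The next members by p were near the threshold and were not called. Ndufb10, an accessory subunit of complex I, had 0.24 ± 0.062 (adjusted p 0.0558), Cox4i1, the widespread form of complex IV subunit 4, had 0.41 ± 0.11 on 1 of its probe sets (0.0707), and Cox7b, another subunit of complex IV, had 0.40 ± 0.11 (0.0713, limma). Atp5k, Cox6c and a probe set of Atp5d followed at 0.32, 0.35 and 0.27 (adjusted p 0.0804, 0.0862 and 0.0925). Leaving out germ-free corpus array 1, which carried skeletal muscle markers (given below), brought the number of members called from 3 to 10. The 7 added were Ndufb10, Cox4i1, Cox5b, Cox6c, Cox7b, Atp5d and Atp5j, all higher in germ-free mice, with adjusted p from 0.0323 to 0.041. Leaving out germ-free jejunum array 3 gave 5, with Ndufb10 and Cox4i1 added. The share of all probe sets called without these arrays is not given here, so both counts describe the list only. Quantile normalization gave 6, adding Ndufb10, Ndufs3 and Cox7b, against 2.02% of all probe sets called.

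Region by region, no member was called. This was so in the corpus (against 0% of all probe sets), the jejunum (against 0.465%), the descending colon (against 0.0111%) and the rectum (against 0.0111%). An unadjusted p below 0.05 was found for 12, 16, 10 and 7 of the 78 members in these regions (limma), again without the share of all probe sets. The members' medians were 0.18, 0.18, 0.17 and 0.18, beside 0.044, -0.018, 0.065 and 0.062 for all probe sets. Estimates were above 0 for 64, 59, 62 and 65 of the 78, against 54.5%, 47.7%, 58.2% and 58.2% of all. The test for a difference between regions called 0 members, against 0.0221% of all probe sets, and 0 had an unadjusted p below 0.05. Without germ-free jejunum 3, 4 members were called higher in the germ-free jejunum, Ndufb10 (0.52), Uqcrc1 (0.59), a probe set of Atp5d (0.74) and Atp5o (0.66). The members' median there was 0.29. The share of all probe sets called in that repeat is not given here, so the count describes the list only. Without germ-free descending colon 3, Ndufb3 was called in that region (adjusted p 0.0153). In the corpus the members' median was 0.28 without germ-free corpus 1 and 0.078 without germ-free corpus 2.

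Signals that did not overlap between states give another view of the same arrays. All 3 germ-free arrays were above all 3 conventional arrays for 12 members in the corpus, against 8.21% of all probe sets, for 17 in the jejunum (against 7.03%), 13 in the descending colon (against 8.4%) and 21 in the rectum (against 7.17%). As shares of the 78 members these are 15.4%, 21.8%, 16.7% and 26.9%. The reverse order was found for 0, 2, 2 and 0 members, against 5.34%, 8.59%, 5.96% and 4.47% of all. Ndufs1, the largest iron-sulfur subunit of complex I, and the assembly factor Ndufaf1 were the lower ones in the germ-free jejunum, and Ndufa7 and Uqcrc1 in the germ-free descending colon. Besides Ndufb3, Ndufb9 and Uqcrh, which were above in all 4 regions, Ndufb10 and Cox7b were above in 3.

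Ndufb10 read 1112, 986 and 1015 on the conventional jejunum arrays and 1490, 1472 and 1249 on the germ-free ones. In the corpus it overlapped, with 1111, 1288 and 1218 against 1108, 1164 and 1339. The exception for Cox7b was the jejunum, at 1303, 1403 and 1084 against 1071, 1074 and 1747. Elsewhere its germ-free arrays were higher, as in the corpus, where 1334, 1166 and 1490 stood against 1699, 2941 and 1806.

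Marker genes of other cells differed between the states in the jejunum, for leukocytes, and on a single corpus array, for skeletal muscle. Leukocyte markers (5 genes, 8 probe sets, 4 to 7 of them above the filter signal on every array) summed to 6504, 5514 and 3011 on the conventional and to 1742, 2275 and 1973 on the germ-free jejunum arrays, without overlap. In the rectum the sums overlapped, at 2125 to 6520 against 2325 to 3615. Skeletal muscle markers (11 genes, 17 probe sets) summed to 6353 on germ-free corpus array 1 and to between 597 and 1695 on the other 23 arrays, and 11 of the 17 were above the filter signal there. The ratio of 3′ to 5′ Gapdh signal, a measure of RNA quality, was 0.72 to 0.853 in conventional and 0.626 to 0.994 in germ-free mice. The part of these differences in the results was not tested.

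Complex II differed by region. Sdha, the flavoprotein that oxidises succinate, and Sdhd, which anchors the enzyme in the membrane, were lower in the corpus than in the jejunum or the descending colon. In this and the following regional comparisons, differences are averaged over both states, and all come from the limma fit. From corpus to jejunum Sdhd rose by 0.74 ± 0.16 (1.67-fold, adjusted p 0.00104) and Sdha by 0.46 ± 0.16 (1.37-fold, 0.0307). From corpus to descending colon Sdha rose by 0.55 ± 0.16 (1.47-fold, adjusted p 0.018) and Sdhd by 0.49 ± 0.16 (1.41-fold, 0.0331).

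In the corpus, Sdhd read 1428, 1653 and 1421 in conventional and 1275, 2426 and 2486 in germ-free mice. The jejunum gave 3095, 2538 and 2576 against 4087, 2906 and 2364. The 3 conventional corpus arrays and germ-free corpus array 1 were the lowest of all 24, and the jejunum and corpus overlapped only among germ-free arrays. That overlap rests on germ-free jejunum array 3 (2364), which holds part of another region's markers. It lay below the germ-free corpus signals of 2426 and 2486. The signal of 2486 came from germ-free corpus array 3, whose markers oppose its label. The germ-free jejunum signals of 4087 and 2906 were above every corpus array. The descending colon read 2510, 2417 and 2110 against 2754, 2318 and 2436, and the rectum 2618, 2155 and 2614 against 2782, 2450 and 2185. These pieces of the hindgut lay between the conventional corpus and the highest jejunum arrays.

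In the corpus, Sdha read 214, 177 and 164 in conventional and 182, 258 and 361 in germ-free mice. The jejunum gave 286, 329 and 265 against 322, 307 and 287. Its highest corpus signal, 361, came from germ-free corpus array 3, the array with few parietal markers. The descending colon read 218, 336 and 256 against 435, 365 and 351, and the rectum 326, 280 and 247 against 377, 313 and 251. In the descending colon the germ-free arrays were above all conventional ones. No other subunit of complex II separated the states in any region.

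The other subunits of complex II moved less. Sdhb, the iron-sulfur subunit that hands electrons on, read 1193 to 1278 in the conventional corpus, 1269 to 1666 in the conventional jejunum and 1335 to 2258 in the germ-free jejunum. Sdhc, the second membrane anchor, read 1372 to 1495, 1433 to 2261 and 1909 to 2541 in the same groups. Neither was called between regions, with 0.28 for Sdhb and 0.36 for Sdhc from corpus to jejunum. All 4 subunits were above 0 from corpus to jejunum (median 0.41, beside -0.098 for all probe sets) and from corpus to descending colon (median 0.27, beside 0.0056), under each of the 3 scalings. From jejunum to descending colon 3 of 4 were below 0 (median -0.25). Between states, Sdha stood at 0.30, Sdhb at 0.20, Sdhc at 0.17 and Sdhd at 0.16, none called.

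**Figure D4:**
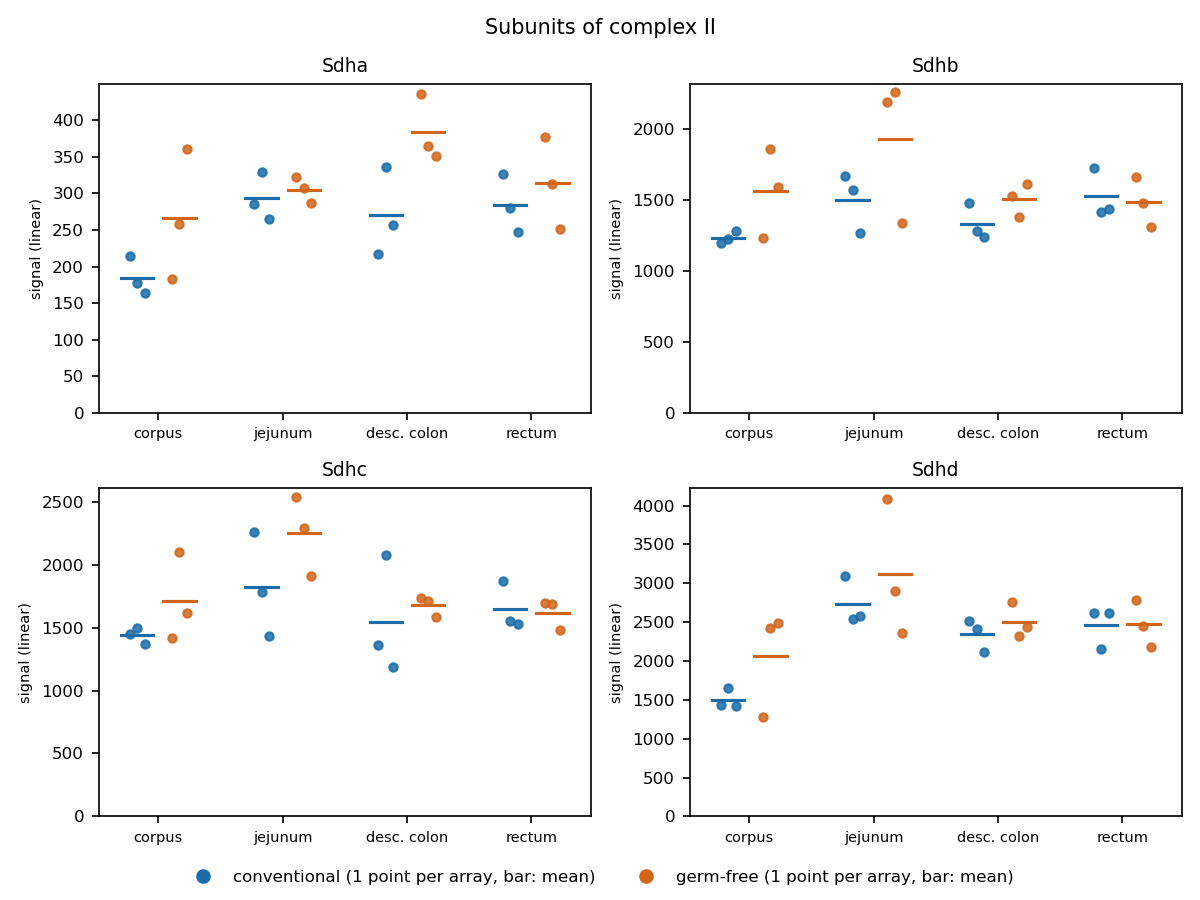
Linear signal of the 4 subunits of complex II on each array, by region; points are arrays (blue conventional, orange germ-free) and bars are means of 3. The conventional corpus holds the lowest group mean for each of the 4 genes, and the germ-free corpus arrays spread from the conventional corpus level up to that of the other regions.

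Of these 4 calls, that of Sdhd from corpus to jejunum held in all 12 omissions of 1 array, with adjusted p up to 0.00404 (limma). Sdha from corpus to descending colon was lost without conventional corpus 3 (adjusted p 0.0507), conventional descending colon 2 (0.0575) or germ-free corpus 1 (0.067). Sdhd from corpus to descending colon was lost in 7 of 12 omissions, at most 0.11 without germ-free corpus 1. The call of Sdha from corpus to jejunum was lost in 8 of 12, at most 0.102 without the same array. Without the 3 arrays that oppose their label, all 4 calls held, with Sdhd at an adjusted p of 0.000514 and 0.0107 and Sdha at 0.00370 and 0.00164 for jejunum and descending colon against corpus.

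Across all complexes, a smaller share of members than of all probe sets was called between regions. From corpus to jejunum 8 members rose and 4 fell, which is 15.4% of the 78 against 32.9% of all probe sets called (13.7% higher and 19.2% lower). From corpus to descending colon 2 rose and 0 fell (2.56%, against 18.3% of all, 9.49% higher and 8.77% lower). From jejunum to descending colon 2 rose and 4 fell (7.69%, against 14.4% of all, 9.1% higher and 5.34% lower). Between descending colon and rectum 0 were called, against 0% of all, and 0 had an unadjusted p below 0.05. Estimates were above 0 for 37 members from corpus to jejunum (against 41.3% of all), 35 from corpus to descending colon (against 50.6%), 34 from jejunum to descending colon (against 60.7%) and 45 from descending colon to rectum (against 41.7%). Except from corpus to descending colon, these counts depended on the scaling. After quantile normalization 35, 38, 45 and 33 of 77 were above 0, in the same order. With equal array medians the counts were 58, 35, 14 and 63. The split of the calls from corpus to jejunum moved with the scaling, from 8 higher and 4 lower to 8 and 10 after quantile normalization and to 13 and 0 with equal array medians. The count of 12 fell to 7 without conventional corpus 1 or conventional corpus 2, to 5 without conventional jejunum 2 and to 4 without germ-free jejunum 1. With the 3 arrays in doubt left out it was 16, against 39.3% of all probe sets. From corpus to descending colon, 0 were called without conventional corpus 3, conventional descending colon 2 or germ-free corpus 1, and 1 without conventional corpus 1, conventional descending colon 1, germ-free descending colon 1 or germ-free descending colon 3. In the same comparison 7 were called without germ-free corpus 3, and 8 without the 3 arrays in doubt, against 29.9% of all probe sets. From jejunum to descending colon, 0 were called without conventional jejunum 1, 1 without conventional jejunum 2 or germ-free descending colon 2, and 2 without germ-free jejunum 1. Omitting conventional descending colon 1 or 3, germ-free jejunum 2, or germ-free descending colon 1 or 3 left 3. For these omissions of 1 array the share of all probe sets is not given here, so their counts describe the list only.

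The range of each probe set over the 8 group means gives the same view without a threshold. Its median was 0.58 on the log2 scale for the 78 members, against 0.92 for all 9033 probe sets. It exceeded 1 for 9 members (11.5%), against 44.2% of all. The members' median signal was 1095, against 157.1 for all probe sets, and the part of signal level in this difference was not tested. By complex, the median range was 0.48 for complex I, 0.83 for complex II, 0.64 for complex III, 0.68 for complex IV and 0.60 for complex V. Among the members of widest range were Cox6a2 (1.66), Cox7a1 (1.23), a probe set of Atp5l (1.23), Cox8b (1.21), Sdha (1.06) and Sdhd (1.02). The most even were a probe set of Atp5g2, which encodes subunit c of the ATP synthase rotor (0.24), Ndufa9 (0.25) and Atp5a1, the alpha subunit of complex V (0.29).

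In complex I, 3 members were called from corpus to jejunum. Ndufb6, an accessory subunit of the membrane arm, fell by 0.55 ± 0.15 (adjusted p 0.00823, limma). Its signals were 1403, 1760 and 1342 in the conventional corpus and 1092, 949 and 1255 in the conventional jejunum, with 1393, 2247 and 1095 against 969, 1078 and 859 in germ-free mice. Within each state all jejunum arrays were below all corpus arrays. Ndufs3, a core subunit beside the iron-sulfur chain, fell by 0.33 ± 0.12 (0.0413), from 1185, 1373 and 1357 to 926, 914 and 981 in conventional mice, while germ-free arrays overlapped, with 1252, 1762 and 1319 against 1532, 1284 and 1008. Ndufv2, an iron-sulfur subunit of the NADH-oxidising module, rose by 0.49 ± 0.16 on 1 probe set (0.0265), while its other probe set was at -0.13. Of the 30 probe sets 20 were below 0 (median -0.12, beside -0.098 for all), while with equal array medians 22 were above 0 (median 0.064, beside 0.081). In that scaling Ndufb6 at -0.36 and Ndufs3 at -0.14 were not called. The Ndufb6 call held in all 12 omissions of 1 array (adjusted p up to 0.027), and those of Ndufs3 and Ndufv2 were lost in 7 and 6 of 12. Without 6 arrays, Ndufb6 was at an adjusted p of 0.00119, that Ndufv2 probe set at 0.00612 and Ndufs3 at 0.0859 (limma).

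From jejunum to descending colon, Ndufa6, a small accessory subunit of complex I, rose by 0.54 ± 0.15 (adjusted p 0.0247, limma). Its jejunum arrays read 387, 350 and 528 in conventional and 422, 352 and 310 in germ-free mice. The descending colon read 579, 453 and 476 and 703, 612 and 569. The states differed in how they lay: germ-free arrays separated fully, and conventional jejunum array 3, the one low in enterocyte markers, reached the colon level. The assembly factor Ndufaf4 rose by 0.66 ± 0.20 over the same step (0.0295), after falling by 0.51 ± 0.20 from corpus to jejunum (0.0489). Its signals in the germ-free jejunum were 47.0, 51.6 and 77.6, near the filter signal of 51.5, against 122, 108 and 116 in the germ-free descending colon. These 2 calls of Ndufaf4 were lost in 9 and 7 of the 12 omissions of 1 array, and that of Ndufa6 in 4. Without the 3 arrays in doubt, Ndufaf4 from corpus to jejunum was at -0.43 (adjusted p 0.139). In the same repeat, the rises from jejunum to descending colon were called, with Ndufaf4 at an adjusted p of 0.0233 and Ndufa6 at 0.00287 (limma).

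In complex III, Uqcrh rose from corpus to jejunum by 0.28 ± 0.097 (adjusted p 0.0333, limma), with the signals given above. Uqcrq, a small subunit of the complex, fell from jejunum to descending colon by 0.41 ± 0.13 (0.0468). Its jejunum arrays read 3567, 3534 and 2535 in conventional and 4841, 4149 and 3703 in germ-free mice. The descending colon gave 2887, 2456 and 3123 and 2711, 2647 and 2748. Only the germ-free arrays were separate. The Uqcrq call was lost in 10 of 12 omissions of 1 array and the Uqcrh call in 6 of 12.

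Complex IV has paired forms of several subunits, some widespread and some found mainly in heart and skeletal muscle, and the array reports members of both kinds. None of the widespread forms tested was called between states or regions. Cox6a1 read from 3706 to 6410 over the 24 arrays, with 0.23 between states. Cox7a2 read from 2732 to 4118, with 0.14 between states and no regional estimate beyond 0.064. Cox6b1 read from 95.2 to 218, with 0.059 between states. The probe set for Cox8a, the widespread form of subunit 8, stayed at 2.7 to 27.7, below the filter signal on every array. It was not tested, and nothing is concluded from it. Cox7a2l, which joins complexes III and IV into supercomplexes, read from 638 to 1030, with 0.17 ± 0.073 between states (adjusted p 0.214, limma).

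**Figure D5:**
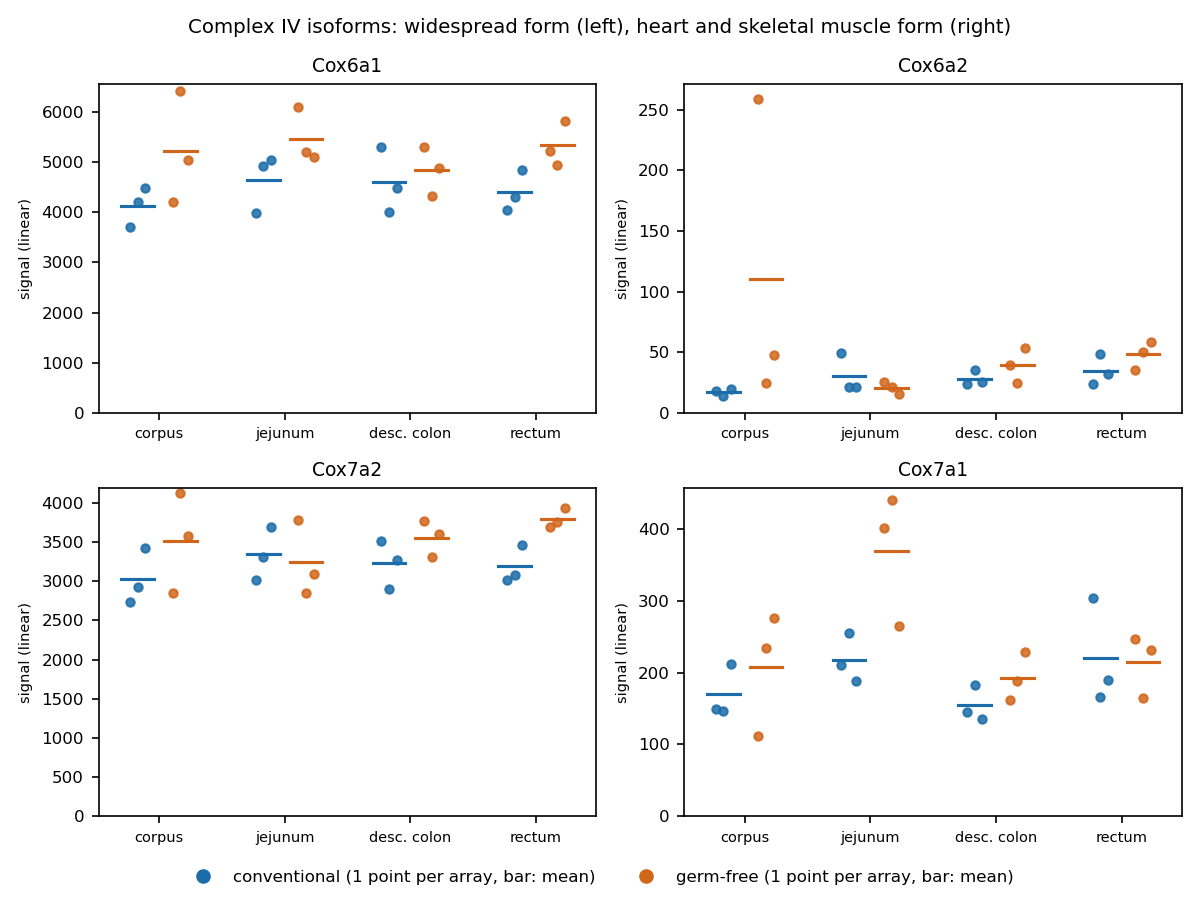
Linear signal of the widespread forms Cox6a1 and Cox7a2 and of the heart and skeletal muscle forms Cox6a2 and Cox7a1 on each array, each panel with its own axis; points are arrays (blue conventional, orange germ-free) and bars are means of 3. Cox6a2 lies near background except for germ-free corpus array 1 at 258, and Cox7a1 is highest in the germ-free jejunum.

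Of the muscle forms, Cox6a2 read between 13.9 and 58.8 on 23 arrays and 258 on germ-free corpus array 1, the array with the skeletal muscle markers, where Acta1, the skeletal muscle actin, read 3289. Its other germ-free corpus arrays read 24.3 and 48.0 and the conventional ones 17.7, 13.9 and 19.4, so the estimate of 1.66 ± 0.58 in the corpus (adjusted p 0.415, limma) rests on signals near the floor of 21.2 apart from that array. Cox8b, another muscle form, was also highest there, at 174, and read 10.5 to 145 elsewhere. Its second probe set stayed at 4.8 to 54.4.

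Cox7a1, the muscle form of subunit 7a, differed by region. From corpus to jejunum it rose by 0.63 ± 0.22 (1.55-fold, adjusted p 0.0288) and from jejunum to descending colon it fell by 0.71 ± 0.22 (1.63-fold, 0.0335, limma). Its jejunum arrays read 210, 255 and 188 in conventional and 401, 440 and 264 in germ-free mice. The corpus gave 150, 147 and 212 and 112, 234 and 276, and the descending colon 145, 183 and 135 and 162, 188 and 229. The germ-free jejunum stood highest and was above all conventional jejunum arrays, while on the array with skeletal muscle markers Cox7a1 read 112, the lowest of its 24 signals. Smooth muscle markers (6 genes, 6 probe sets) summed to 3788 to 11250 in the jejunum and to 14220 to 24620 in the corpus. All 6 were above the filter signal on every array. The part of muscle content in the Cox7a1 differences was not tested. The rise was lost in 6 of 12 omissions of 1 array and the fall in 8 of 12.

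Cox6b2 and Cox8c encode forms known from testis. Cox6b2 fell from jejunum to descending colon by 0.85 ± 0.23 on 1 probe set (adjusted p 0.0204, limma), from 134, 134 and 107 to 76.7, 79.3 and 56.1 in conventional and from 128, 137 and 120 to 73.1, 55.2 and 86.8 in germ-free mice. All 6 jejunum arrays were above all 6 colon arrays. Its other tested probe set read 7.9 to 78.1, was at -0.0078 over the same step, and shows no such order. Cox8c fell from corpus to jejunum by 0.45 ± 0.14 (0.0213), from 429, 538 and 710 to 385, 332 and 443 in conventional and from 504, 510 and 475 to 427, 286 and 455 in germ-free mice. With equal array medians Cox8c was at -0.26 and not called. Cox4i1 read 136 to 257 on the probe set named above and 36.3 to 122 on its other, with 0.41 and 0.24 between states.

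In complex V, 3 members rose from corpus to jejunum. Atp5e, the epsilon subunit, rose by 0.56 ± 0.18 (1.47-fold, adjusted p 0.0199, limma). Atp5o, the stalk protein that confers oligomycin sensitivity, rose by 0.33 ± 0.11 (1.26-fold, 0.0208, limma). A probe set of Atp5g1, which encodes subunit c, rose by 0.84 ± 0.27 (1.78-fold, 0.0212, limma). Atp5e read 601, 756 and 617 in the conventional corpus and 812, 678 and 1038 in the conventional jejunum, and 831, 544 and 893 against 1470, 1409 and 969 in germ-free mice. The germ-free arrays did not overlap, and the conventional ones did. Each of the 3 calls was lost in 3 of 12 omissions of 1 array, with adjusted p up to 0.0661, 0.0571 and 0.0715. Germ-free jejunum array 1 ended all 3 when it was left out.

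Atp5md, a small subunit of the membrane part of complex V, fell from jejunum to descending colon by 0.64 ± 0.19 (1.56-fold, adjusted p 0.0256, limma). Its jejunum arrays read 4040, 4302 and 2641 in conventional and 4297, 3228 and 3254 in germ-free mice, and its descending colon arrays 2434, 1711 and 2230 and 3492, 2099 and 2099. Conventional arrays were separate, and germ-free colon array 1, which holds part of another region's markers, lay within the jejunum values. The call was lost in 6 of 12 omissions. Over the 20 probe sets of complex V, 13 were above 0 from corpus to jejunum (median 0.11) and 6 of 20 from jejunum to descending colon (median -0.083), with medians of the same sign under the other scalings.

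Probe sets of the same gene did not always go the same way. Those with f, r, s or i in their name were designed under relaxed rules and may bind related transcripts. For Atp5g1, the probe set called from corpus to jejunum (type r) read 39.3 to 174, while the other, at 52.4 to 124 and of no such type, was at -0.13. For Ndufv2, the probe set of type f was at 0.49 and the other at -0.13 over that step. For Atp5d, the delta subunit, 3 probe sets, all of type f, were between 0.53 and 0.66 for germ-free minus conventional in the jejunum. The fourth, of no such type and at most 92.2 on the conventional arrays, was at -0.34 in the jejunum. For Atp5g2, the probe set of type f was at 0.23 and the other at -0.44 there, and for Cox4i1 the values were 0.50 and -0.17. Between states over all regions, opposite signs remained for Ndufb2 (0.17 and -0.09) and Cox6b2 (0.37 and -0.016). The probe sets of Atp5c1 (0.25 and 0.19), Atp5l (0.11 and 0.46) and Ndufa3 (0.39 and 0.075) had the same sign.

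The neighbouring gene lists of energy metabolism were set beside the share of all probe sets called between states, 1.68%. Averaged over regions, 0 of 18 tested probe sets of mitochondrial carriers and cytochrome c, 0 of 18 of the citric acid cycle, 0 of 8 of assembly factors and import, 0 of 18 of glycolysis and lactate metabolism, and 1 of 15 of transcriptional regulators were called, the last higher. Their medians were 0.23, 0.088, 0.070, 0.12 and 0.21, beside 0.034 for all probe sets. The regulator was Ppara, a nuclear receptor that drives fatty acid oxidation, at 0.75 ± 0.17 (1.68-fold, adjusted p 0.0322, limma), and it was also called in the jejunum (1.85 ± 0.35, adjusted p 0.0231). Its jejunum arrays read 188, 198 and 93.9 in conventional and 800, 457 and 445 in germ-free mice. The coactivator Ppargc1a (0.53, adjusted p 0.189) and a probe set of Yy1 (0.23, 0.152), whose core was searched above, were not called.

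Between regions more of these genes were called, as were more of all probe sets (32.9% from corpus to jejunum). The counts of 6 of 18 for the citric acid cycle and 5 of 15 for the regulators are close to that share and show nothing particular to these lists. From corpus to jejunum, 5 citric acid cycle probe sets rose and 1 fell of 18: Cs, citrate synthase, rose by 0.76 ± 0.12 (1.70-fold) and Ogdh, of the oxoglutarate dehydrogenase, by 0.77 ± 0.16 (1.71-fold), while Dlat, of the pyruvate dehydrogenase, fell by 0.73 ± 0.23. Cs also rose from corpus to descending colon, by 0.57 ± 0.12 (adjusted p 0.00163, limma), the step over which Sdha and Sdhd rose. Among regulators 3 rose and 2 fell of 15 from corpus to jejunum, with both probe sets of Esrra, an orphan receptor of mitochondrial genes, at 0.86 and 1.05. Of the carriers 0 rose and 2 fell of 18, among them Slc25a4, the ADP/ATP carrier of heart and muscle (-1.16). Glycolysis and lactate genes had 5 higher and 6 lower of 18, with Ldhb, the heart-type lactate dehydrogenase, at -2.02. Assembly and import genes had 0 higher and 1 lower of 8, which was Ndufaf4.

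The scaling of the arrays bears on these shifts, since they are small. With equal array medians, the median of all probe sets in the descending colon moved from 0.065 to -0.10 for germ-free minus conventional and that of the members from 0.17 to -0.0083, which turns its direction. Relative to all probe sets the members' median was 0.11 higher before and 0.096 higher after. From corpus to jejunum the members' median turned from -0.032 to 0.16, while that of all probe sets turned from -0.098 to 0.081. After quantile normalization the members' median turned from -0.037 to 0.031 from jejunum to descending colon and from 0.019 to -0.016 from descending colon to rectum. Averaged over regions, the members stood above the median of all probe sets by 0.15 with the deposited scaling, by 0.19 after quantile normalization and by 0.15 with equal array medians. Of the tested members 69 of 78, 68 of 77 and 69 of 77 were above that median.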

How the data were processed

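Total RNA of mouse gut tissue was measured on 24 one-colour oligonucleotide arrays of 12488 probe sets. The deposited values are linear intensities per probe set. Their mean over the middle 96% of probe sets is 200.1 on every array, so the authors had scaled them before deposit, as judged from the values; the signal algorithm is not given in the sources used here. Signals below the 25th percentile (21.2) were set to it and log2 taken. After 66 control probe sets were left out, 9033 probe sets with 3 or more arrays above a filter at the 40th percentile (51.5) were tested with limma 3.58.1 (R 4.3.3): a mean for each of the 8 groups, a variance trend with intensity, Benjamini-Hochberg adjustment, threshold 0.05. The fit was tested on simulated data. With 3 arrays a group, their number limits the precision.

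Gene symbols come from the platform annotation, which pairs 10855 probe sets with 1 symbol, 396 with several and 1237 with none. The members, the gene lists and the tests were chosen with earlier results of these data known. Members called in a comparison are named, up to 12 each way, with members of lowest p added. The subunits of complex II, the tissue forms of complex IV, Uqcrh and genes whose probe sets disagree are always given, and other gene lists by up to 3 of lowest p; other genes of those lists and Acta1 were named after their values were seen. Alternatives were the scaling, floor, filter, variance trend, replicate block, arrays in the fit and omission of each array. Omitting the 3 or 6 arrays in doubt was chosen after seeing the data.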

Additional observations from a re-analysis of the deposited data

Results flagged for a closer look

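A probe set that lists both Atp5c1, the gamma subunit of complex V, and its pseudogene stands outside the 78 members because it names several genes. It was higher in germ-free mice by 0.50 ± 0.089 on the log2 scale, averaged over the 4 regions (1.41-fold, adjusted p 0.00716, limma). Its signals ran from 3125 to 4360 on the conventional and from 3615 to 6430 on the germ-free arrays, which overlap. The estimates were 0.33 in the corpus, 0.79 in the jejunum, 0.42 in the descending colon and 0.45 in the rectum. The probe sets that name Atp5c1 alone stood at 0.25 and 0.19 and were not called.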

How the results depend on the processing

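Over 12 alternatives and the omission of each array, the 23 named calls kept their sign in all 582 values and their side of the threshold in 439, and 143 lost the call. For the mean difference between states, 3 members were called with the deposited scaling. There were 6 after quantile normalization (against 2.02% of all probe sets), 1 with equal array medians (1.57%), and 3 to 10 when 1 array was left out. In the jejunum the count went from 0 to 1 with no filter. Without 6 arrays it was 3 (median 0.274), against 3.26% of all probe sets called. It was 0 to 4 when 1 array was left out (median 0.15 to 0.292). In the descending colon it was 1 after quantile normalization (against 0.0225% of all) and 1 without 3 arrays (0.0901%). It was 2 there without 6 arrays (1.22%), and 0 to 1 when 1 array was left out. The median in the corpus ran from 0.0784 to 0.282 over the array omissions. With equal array medians, the members' median turned to -0.00829 for states in the descending colon and to 0.156 from corpus to jejunum, and moved to 0.0709 for states in the rectum, -0.209 from jejunum to descending colon and 0.123 from descending colon to rectum. After quantile normalization it turned to 0.031 from jejunum to descending colon and to -0.0158 from descending colon to rectum. From corpus to jejunum, 20 members were called without 6 arrays (against 42% of all probe sets), 5 with only the arrays compared, and 4 to 16 when 1 array was left out. From corpus to descending colon the counts were 1 with equal array medians (against 17% of all) and 4 with no filter. They were 8 without 3 arrays (29.9%), 13 without 6 (33.3%), 0 with only the arrays compared, and 0 to 7 when 1 was left out. From jejunum to descending colon they were 14 without 6 arrays (against 31.2% of all) and 0 to 8 when 1 was left out. Where no share of all probe sets stands beside a count in this section, the count describes the list only. The cause of these changes in count was not tested. Deviations of same-numbered arrays correlated above 0.1 in 12 of 18 pairs of regions in germ-free mice, with all 3 pairs of descending colon and rectum among them (r 0.157 to 0.455). This was so in 4 of 18 pairs in conventional mice and in 2 of 12 across states. The numbers may pair part of the germ-free arrays, but this was not tested. The widest values were in conventional jejunum and rectum (0.615, -0.497 and 0.666), which hold arrays whose markers oppose their label. Several germ-free arrays also hold another region's markers. With the number as a fixed replicate block, 3 members were called between states, 13 from corpus to jejunum, 2 from corpus to descending colon and 6 from jejunum to descending colon, and with a random replicate block (correlation 0.12) 2 (Ndufb9 lost), 16, 2 and 6. Probe sets near the floor, such as Cox6a2, have folds that depend on it.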
